A study of Mus musculus with 24 samples.

Results

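Transcripts of 34 genes of glycolysis and of the response to low oxygen were followed through 24 poly-A RNA-seq libraries, out of 31062 features counted in each. The genes were taken by symbol, and all 34 were found: 14 glycolytic enzymes, 6 carriers and regulators of glycolytic flux, and 14 genes of the hypoxia-inducible factor (HIF) pathway, mostly its targets. All 34 passed the filter on low counts that left 14622 genes for testing. All groups were ID8 p53-/-, that is, mouse ovarian cancer cells without p53. One derivative carried a knockout of Ifngr1, a receptor gene without which cells cannot respond to interferon-gamma (IFN-gamma), and the other was the control labelled sgNTC. Each derivative was grown attached (adherent) or in ultra-low attachment (ULA) plates, where cells stay in suspension, for 48 hours. IFN-gamma at 100 ng/ml or the PBS vehicle was present for the last 24 hours. This gave 8 groups of 3 biological replicates: adherent sgNTC with PBS or IFN-gamma, adherent Ifngr1-KO with PBS or IFN-gamma, and the same 4 in ULA plates. Each genotype was 1 line, so a difference between genotypes cannot be told apart from any other difference between the lines. Only ULA samples had a step that removed dead cells, so culture and that handling step cannot be told apart either.

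Glycolysis splits glucose into pyruvate, and lactate dehydrogenase then turns pyruvate into lactate. HIF is a transcription factor whose alpha subunit (HIF-1alpha, from Hif1a) is hydroxylated by the oxygen-dependent prolyl hydroxylases, among them Egln1 and Egln3, and is then degraded. When oxygen is short the subunit accumulates and raises transcription of most glycolytic enzymes, of the glucose transporter Slc2a1 and of its own hydroxylases. HIF is therefore set mainly at the protein level, which RNA counts do not show, and many solid tumours express its targets.

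Libraries held 33494774 to 63154942 counts, and Ifngr1 stood at 13.3 to 17 CPM (counts scaled to a common library total) in the 12 Ifngr1-KO libraries against 31.7 to 48.1 CPM in the 12 sgNTC libraries. Mitochondrially encoded genes took 1.96% to 2.94% of counts in adherent libraries, 3.31% to 3.87% in ULA Ifngr1-KO libraries and 5.09% to 6.12% in ULA sgNTC libraries. Their part in the results below was not tested. The epithelial and mesothelial markers Krt8, Krt18, Krt19, Wt1 and Msln were at or above 125 CPM in every library, while Krt7, Pax8, Cdh1 and Lrrn4 reached at most 1.24 CPM, Upk3b 8.60 CPM and Epcam had no count. Gpm6a, the remaining marker of that list, stood at 19.9 to 252 CPM. The leukocyte marker Ptprc reached at most 0.149 CPM and the lymphocyte list at most 0.241 CPM in sum. The summed macrophage list was 3.25 to 8.02 CPM in adherent and 9.17 to 27.8 CPM in ULA libraries, nearly all of it Cd68 and Mrc1, with C1qa and C1qb at 0. The fibroblast list summed to 15.4 to 60.4 CPM in adherent and 89.8 to 99.4 CPM in ULA libraries, almost all of it Dcn, with the others at most 0.783 CPM each and Lum at 0. The endothelial list, mostly Pecam1, summed to 0.525 to 1.18 CPM in adherent and 1.11 to 5.46 CPM in ULA libraries. The part of these lists in the culture effect was not tested. The libraries adherent Ifngr1-KO PBS replicate 3 and ULA Ifngr1-KO IFN-gamma replicate 2 stood further from their groups than other replicates did, with a chi-square per gene of up to 19.1 and 25.3 against their group mates, which differed by 7.23 and 7.48.

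The most abundant members were glycolytic enzymes. Per kilobase of exon, which allows levels to be compared between genes, phosphoglycerate kinase Pgk1 led in adherent sgNTC PBS cells at 1207 CPM per kb, followed by pyruvate kinase Pkm at 696, aldolase Aldoa at 460.1 and lactate dehydrogenase Ldha at 438. Enzymes of the first steps were lower, with hexokinase Hk2 at 60.4, the platelet-type phosphofructokinase Pfkp at 26.9 and the muscle-type Pfkm at 15 CPM per kb. For aldolase and enolase the main isozyme far exceeded its tissue-restricted relative: the ratio of Aldoa to Aldoc per kilobase ran from 24.0 to 34.7 over the 8 groups, and that of Eno1 to Eno2 from 119 to 276. Slc2a1 stood at 77.7 and the other glucose transporter of the list, Slc2a3, at 0.369 CPM per kb. The lactate exporter Slc16a3 was likewise low at 0.381 CPM per kb. Gapdh, at 109.7 CPM per kb, and other enzymes with many near-identical pseudogenes may be undercounted, because reads that map to several places were not counted, and their rank among the members is uncertain.

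Among the HIF genes the order per kilobase in the same cells was led by the angiogenic factor Vegfa at 182 and by Hif1a at 138 CPM per kb. Ndrg1, a stress-response gene, and the mitophagy receptor Bnip3l stood at 72.7 and 73.3. A trio of classical targets was close to absent in all 24 libraries. Bnip3, the paralog of Bnip3l, had 0 to 39 counts per library, the vasodilator peptide gene Adm 0 to 59, and the carbonic anhydrase gene Car9 4 to 69. For these 3 genes the counts are given and no fold change, though they stay among the members whose calls are counted. Ankrd37 shared 26.4% of its exon bases and Bnip3 22.3% with genes on the opposite strand, and Gpi1 and Pfkm shared 11.5% and 10.7% with other genes. Car9, Hif1a, Ndrg1 and Pfkp shared 5.58% to 9.29%. As counting did not use strand, the values of these genes are less certain than the rest.

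Promoter windows are shown for 5 of the 23 members called higher in ULA culture with PBS in sgNTC and Ifngr1-KO cells alike. They are Pgk1, Pgam1 and Ldha among the enzymes, the pyruvate dehydrogenase kinase gene Pdk1, and Egln3. The rise of Pgk1 in sgNTC cells was small, and its call was lost in some fits that left out 1 library. Each line gives the 250 bases before 1 RefSeq start of the gene in GRCm38.p6, 5′ to 3′ on the strand of the gene. Capitals mark the core letters of the HIF response element, ACGTG or GCGTG, on either strand, so that the opposite strand reads as CACGT or CACGC. The palindrome CACGTG holds ACGTG on both strands and counts as 2 matches.
Pgk1, chrX:106186850-106187099 (plus strand): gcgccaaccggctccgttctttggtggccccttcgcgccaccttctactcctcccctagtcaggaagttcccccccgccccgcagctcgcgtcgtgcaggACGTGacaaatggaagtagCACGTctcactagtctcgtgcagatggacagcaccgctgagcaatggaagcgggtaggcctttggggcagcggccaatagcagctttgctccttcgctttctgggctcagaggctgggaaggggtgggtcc
Pgam1, chr19:41911621-41911870 (plus strand): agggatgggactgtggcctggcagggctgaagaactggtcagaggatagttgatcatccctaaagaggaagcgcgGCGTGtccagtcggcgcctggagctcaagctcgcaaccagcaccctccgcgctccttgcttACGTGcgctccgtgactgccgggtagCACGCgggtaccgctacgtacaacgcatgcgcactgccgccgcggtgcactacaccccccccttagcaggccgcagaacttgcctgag
Ldha, chr7:46845554-46845803 (plus strand): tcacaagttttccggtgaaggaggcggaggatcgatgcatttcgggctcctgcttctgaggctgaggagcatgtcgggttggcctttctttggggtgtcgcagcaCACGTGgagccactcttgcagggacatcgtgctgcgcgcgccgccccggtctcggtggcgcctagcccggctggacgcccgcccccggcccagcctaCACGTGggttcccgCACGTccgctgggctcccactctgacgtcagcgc
Pdk1, chr2:71872974-71873223 (plus strand): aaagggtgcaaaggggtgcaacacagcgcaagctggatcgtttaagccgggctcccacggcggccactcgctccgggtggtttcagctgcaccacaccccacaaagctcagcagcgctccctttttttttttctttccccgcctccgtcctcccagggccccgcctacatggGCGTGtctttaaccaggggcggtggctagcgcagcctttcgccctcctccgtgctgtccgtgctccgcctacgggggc
Egln3, chr12:54203875-54204124 (minus strand): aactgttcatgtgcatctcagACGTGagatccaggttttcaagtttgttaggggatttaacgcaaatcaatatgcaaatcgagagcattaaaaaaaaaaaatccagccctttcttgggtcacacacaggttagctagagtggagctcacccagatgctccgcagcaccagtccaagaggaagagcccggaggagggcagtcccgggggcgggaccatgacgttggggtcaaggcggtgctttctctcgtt
The Ldha window held 5 matches, 4 of them in a pair of CACGTG palindromes, and the Egln3 window held 1. Ldha and Pdk1 each have a second RefSeq start, not shown, whose 250 bases held 1 match and 0 matches. RefSeq windows were found for 31 of the 34 members, and not for Slc2a3, Bnip3l or Ndrg1. Over 300 bases, from 250 before to 50 after the start, 28 of these 31 (90.3%) held a match in at least 1 window, against 46.7% of 27025 genes with a window and 65.0% of the 10880 tested genes that have one. The members had 1.58 windows per gene against 1.27 for tested genes, and a mean GC content of 61.4% against 59.8%, and no test was made of the difference. The 3 members without a match were the enzyme genes Gpi1, Tpi1 and Eno2. Of the 14 enzymes 11 held a match (78.6%, 95% interval 49.2% to 95.3%), an interval that includes the 65.0% of tested genes. All 12 HIF genes and all 5 carriers or regulators with a window held one. A match describes the letters only. Gpi1, without a match in this window, was among the enzymes with the steepest rise in ULA culture below.

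Most members were higher in ULA than in adherent culture, in both lines. In sgNTC cells with PBS, 24 of 34 members rose and 3 fell (percent of all tested genes called: 32.5% higher, 32.1% lower, 64.6% in all). In Ifngr1-KO cells with PBS, 29 rose and none fell (29.6% and 31.1% of all genes, 60.7% in all). A gene is called here at an adjusted p under 0.05 in edgeR's quasi-likelihood test across all genes, and log2 differences are given ± SE. The members' median log2 difference was 0.62 in sgNTC and 0.92 in Ifngr1-KO cells, against 0.03 and -0.00363 over all tested genes. Of the called rises, 23 were shared by the lines, which is 23 of 24 in sgNTC and 23 of 29 in Ifngr1-KO cells. The share of all tested genes that rose in both lines was not counted, so this overlap is not shown to be particular to the members. In bulk RNA a change in the number of cells that express a gene cannot be told apart from a change in RNA per cell.

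**Figure D1:**
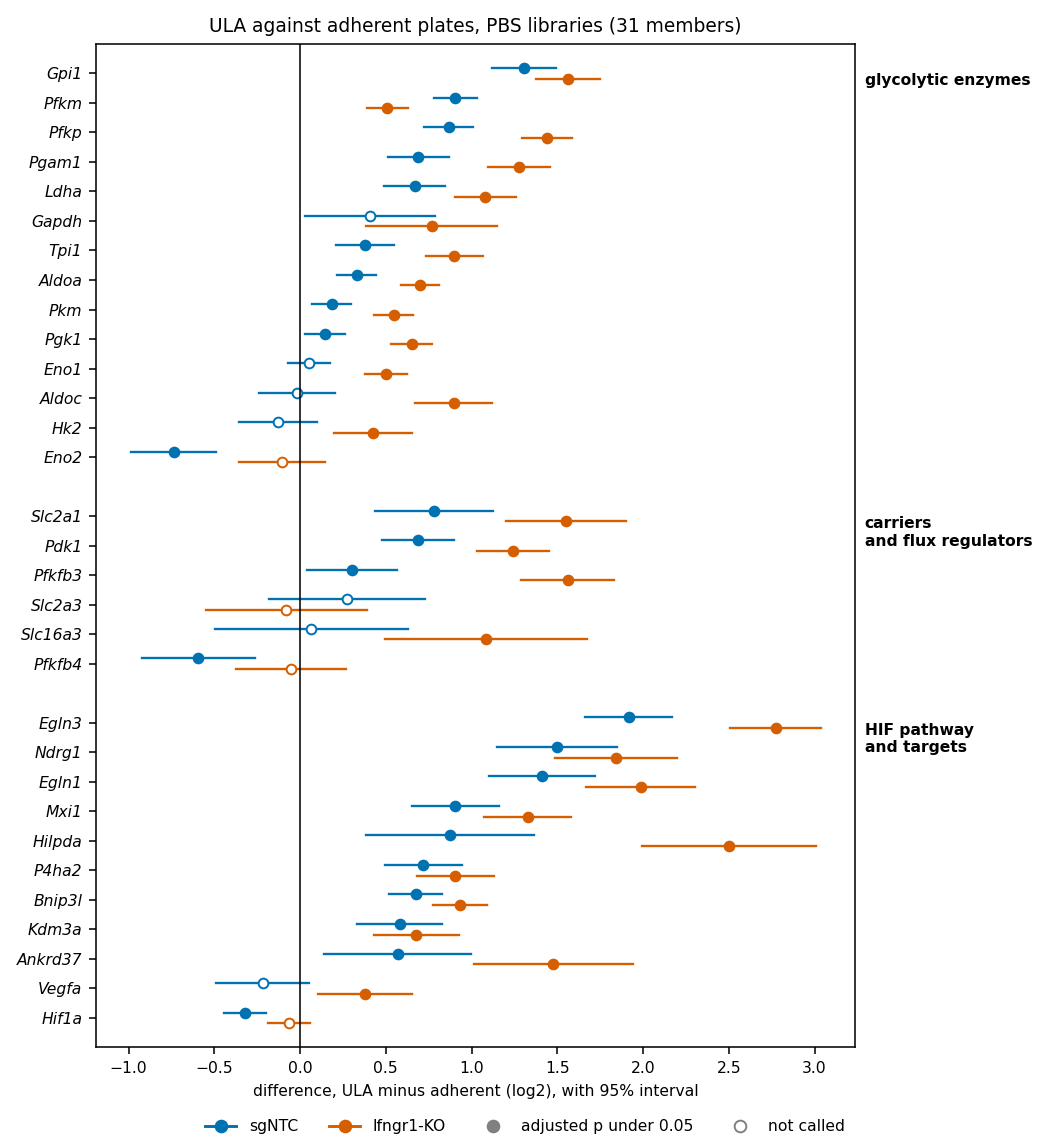
Log2 difference between ULA and adherent libraries with PBS (x axis) for 31 members, in sgNTC (blue) and Ifngr1-KO (orange) cells, with 95% intervals; filled points are called. Bnip3, Adm and Car9 are left out for their low counts. Most points lie to the right of 0, from 1.92 and 2.77 for Egln3 down to -0.74 and -0.11 for Eno2.

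Of the 14 enzymes, 9 rose and 1 fell in sgNTC cells (32.5% and 32.1% of all genes, 64.6% in all). In Ifngr1-KO cells 13 rose and none fell (29.6% and 31.1%, 60.7% in all). The largest rise was in Gpi1 (ENSMUSG00000036427, GRCm38 chromosome 7, 34201330 to 34230336, minus strand), which interconverts glucose- and fructose-6-phosphate. Its level was 642, 636 and 659 CPM in adherent and 1469.7, 1745 and 1579 CPM in ULA sgNTC libraries, and 472, 491 and 543 CPM in adherent and 1471, 1497 and 1488 CPM in ULA Ifngr1-KO libraries. All 6 ULA values lay above all 6 adherent ones, and the rise was 1.31 ± 0.09 (adjusted p = 7.48e-12) in sgNTC and 1.56 ± 0.09 (adjusted p = 3.7e-13) in Ifngr1-KO cells. Pfkp (ENSMUSG00000021196, GRCm38 chromosome 13, 6579768 to 6648777, minus strand), a phosphofructokinase that commits sugar to glycolysis, stood at 374, 346 and 362 CPM and 595, 696 and 685 CPM in adherent and ULA sgNTC libraries. The Ifngr1-KO libraries held 307, 292 and 325 CPM and 812, 833 and 859 CPM. The cultures did not overlap in either line, and the rise was 0.87 ± 0.07 (adjusted p = 2.91e-12) and 1.44 ± 0.07 (adjusted p = 2.59e-17).

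Lactate dehydrogenase followed the same pattern. Ldha (ENSMUSG00000063229, GRCm38 chromosome 7, 46841475 to 46855627, plus strand) was at 1480.2, 1452 and 1419 CPM in adherent and 2190.5, 2390.4 and 2334 CPM in ULA sgNTC libraries. In Ifngr1-KO libraries it was at 1353, 1401 and 1799 CPM in adherent and 3157, 3220.1 and 3249.9 CPM in ULA culture, where all 3 values lay above every sgNTC library. The rise was 0.67 ± 0.09 (adjusted p = 2.9e-07) in sgNTC and 1.08 ± 0.09 (adjusted p = 1.02e-10) in Ifngr1-KO cells. Phosphoglycerate mutase, from Pgam1 (ENSMUSG00000011752, GRCm38 chromosome 19, 41911871 to 41918664, plus strand), was at 638, 639 and 639.9 CPM and 922, 1088 and 1083 CPM in adherent and ULA sgNTC libraries, and at 518, 517 and 612 CPM and 1311, 1326 and 1355 CPM in Ifngr1-KO libraries. It rose by 0.69 ± 0.09 and 1.28 ± 0.09, without overlap between cultures. Triose phosphate isomerase Tpi1 rose by 0.38 ± 0.08 and 0.90 ± 0.08, and Aldoa by 0.33 ± 0.06 and 0.70 ± 0.06, in sgNTC and Ifngr1-KO cells in that order. The 2 most abundant enzymes, Pkm and Pgk1, rose only slightly in sgNTC cells. Pkm (ENSMUSG00000032294, GRCm38 chromosome 9, 59656368 to 59679375, plus strand) was at 3488, 3467 and 3492 CPM in adherent and 3809, 4147 and 3917 CPM in ULA sgNTC libraries, a rise of 0.18 ± 0.06 (adjusted p = 0.00407). The Ifngr1-KO values were 3029.6, 2999 and 3422 CPM and 4443, 4660.1 and 4694 CPM, a rise of 0.55 ± 0.06 (adjusted p = 1.49e-10). The small rise of Pgk1 in sgNTC cells, 0.14 ± 0.06 (adjusted p = 0.0282), was lost when adherent PBS replicate 1 or 2 or ULA PBS replicate 2 was left out, with adjusted p up to 0.141.

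Not every enzyme followed. Hk2 was called in Ifngr1-KO cells at 0.42 ± 0.11 and not in sgNTC cells at -0.13 ± 0.11, and Eno1 likewise at 0.50 ± 0.06 and 0.05 ± 0.06. Eno2, the neuronal enolase, went the other way in sgNTC cells, from 14.9, 15.5 and 15 CPM to 9.2, 9.31 and 8.65 CPM (-0.74 ± 0.12, adjusted p = 2.9e-06). All 3 adherent values lay above the ULA values there. Its Ifngr1-KO values were 11.8, 11.5 and 11.4 CPM and 10.1, 11.4 and 10.7 CPM, and it was not called there (-0.11 ± 0.12). Pfkm rose in both lines. It went from 50.6, 48.3 and 51 CPM to 94.6, 93.9 and 92.5 CPM in sgNTC libraries (0.91 ± 0.06, adjusted p = 2.76e-15), and from 85.7, 83.4 and 89 CPM to 117, 118 and 133 CPM in Ifngr1-KO libraries (0.51 ± 0.06), with no overlap between cultures in either line.

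Summed over the 14 enzymes, the share of all counts moved with culture. It was 1.41% ± 0.00470 (SD, n = 3) in adherent and 1.94% ± 0.0743 in ULA sgNTC cells with PBS, and 1.38% ± 0.130 and 2.37% ± 0.0416 in Ifngr1-KO cells. No ULA library with PBS overlapped an adherent library. These sums were not tested.

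**Figure D2:**
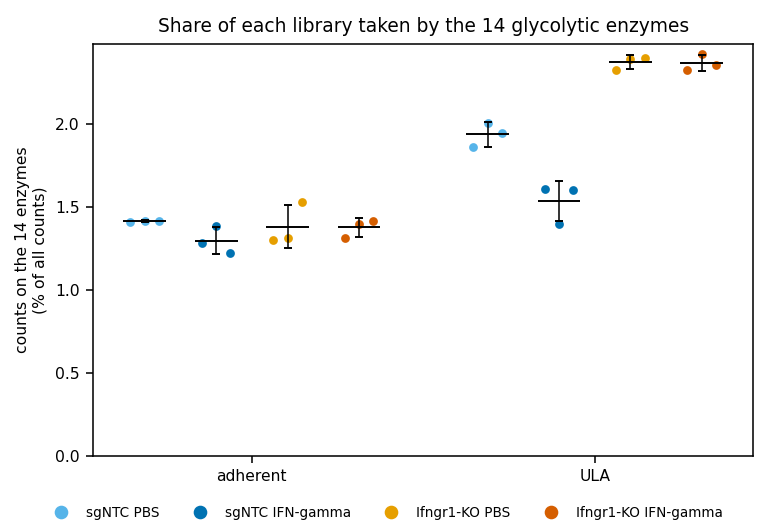
Percent of each library's counts that fell on the 14 glycolytic enzymes (y axis) in adherent and ULA culture, 1 point per library, with group means and SD. ULA Ifngr1-KO libraries sit at 2.32% to 2.42% with or without IFN-gamma, while ULA sgNTC libraries sit at 1.86% to 2.01% with PBS and 1.40% to 1.61% with IFN-gamma.

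Among the 6 carriers and regulators, 3 rose and 1 fell in sgNTC cells (32.5% and 32.1% of all genes, 64.6% in all). In Ifngr1-KO cells 4 rose and none fell (29.6% and 31.1%, 60.7% in all). The totals called were near those of all genes. Slc2a1 (ENSMUSG00000028645, GRCm38 chromosome 4, 119108711 to 119137983, plus strand), the main glucose transporter, was at 272, 267 and 279 CPM in adherent and 375, 562 and 467 CPM in ULA sgNTC libraries. Its Ifngr1-KO levels were 311, 272 and 298 CPM and 897, 845 and 835 CPM. ULA lay above adherent in both lines, by 0.78 ± 0.16 (adjusted p = 0.000438) and 1.55 ± 0.17 (adjusted p = 2.32e-07), and the ULA Ifngr1-KO libraries lay above all others. Pdk1 (ENSMUSG00000006494, GRCm38 chromosome 2, 71873224 to 71903858, plus strand), which shuts pyruvate out of the mitochondrial dehydrogenase, was at 325, 285 and 322 CPM and 469.6, 535 and 494 CPM in adherent and ULA sgNTC libraries. It was at 248, 251 and 288 CPM and 619, 617 and 625 CPM in the Ifngr1-KO libraries, and rose by 0.69 ± 0.10 and 1.24 ± 0.10. Pfkfb3 and Pfkfb4 make and break fructose 2,6-bisphosphate, an activator of phosphofructokinase, and they went apart in sgNTC cells. Pfkfb3 was called higher at 0.30 ± 0.13 (adjusted p = 0.0407), a call lost without any of 4 of the 6 libraries with adjusted p up to 0.236, and its libraries held 22.5, 20.8 and 25 CPM in adherent and 27.7, 32.4 and 24 CPM in ULA culture. Pfkfb4 fell, from 5.4, 5.18 and 4.88 CPM to 3.87, 3.57 and 2.76 CPM (-0.59 ± 0.16, adjusted p = 0.00183). In Ifngr1-KO cells Pfkfb3 rose by 1.56 ± 0.13, from 13.2, 13.9 and 12.4 CPM to 38.2, 40.3 and 38.2 CPM, and Pfkfb4 was not called at -0.05 ± 0.16. Slc2a3 was not called in either line (0.27 ± 0.22 and -0.08 ± 0.23).

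The HIF targets held the largest rises of the list. Of the 14 HIF genes, 12 rose and 1 fell in sgNTC cells (32.5% and 32.1% of all genes, 64.6% in all). In Ifngr1-KO cells 12 rose and none fell (29.6% and 31.1%, 60.7% in all). Their median log2 differences were 0.89 in sgNTC and 1.40 in Ifngr1-KO cells. Egln3 (ENSMUSG00000035105, GRCm38 chromosome 12, 54178981 to 54203860, minus strand), a prolyl hydroxylase that HIF itself induces, was at 116, 105 and 114 CPM in adherent and 389.99, 464 and 411 CPM in ULA sgNTC libraries. The corresponding Ifngr1-KO values were 55.7, 49 and 66.1 CPM and 370.2, 405 and 392 CPM. The rise was 1.92 ± 0.12 (adjusted p = 2.91e-11) and 2.77 ± 0.13 (adjusted p = 1.82e-13), and the 2 cultures were far apart in both lines. Egln1 (ENSMUSG00000031987, GRCm38 chromosome 8, 124908587 to 124949324, minus strand), the main oxygen-sensing hydroxylase, rose from 188, 165 and 183 CPM to 425, 513 and 487 CPM in sgNTC libraries. It rose from 106, 99.6 and 127 CPM to 439.6, 427 and 449.8 CPM in Ifngr1-KO libraries, and the log2 differences were 1.41 ± 0.15 and 1.99 ± 0.15. Per kilobase Egln1 exceeded Egln3 in adherent cells, by 1.18 times in sgNTC and 1.44 times in Ifngr1-KO libraries with PBS, and the ratio was 0.834 and 0.836 in ULA cells.

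Ndrg1 (ENSMUSG00000005125, GRCm38 chromosome 15, 66929318 to 66969640, minus strand) was at 478, 470.4 and 490.1 CPM in adherent and 1056, 1561 and 1448 CPM in ULA sgNTC libraries. The Ifngr1-KO values were 416, 415 and 443 CPM and 1539, 1518 and 1513 CPM. It rose by 1.50 ± 0.17 and 1.84 ± 0.17, and the ULA sgNTC libraries were spread more widely than the Ifngr1-KO ones. Hilpda (ENSMUSG00000043421, GRCm38 chromosome 6, 29272488 to 29275446, plus strand), which inhibits breakdown of lipid droplets, was at 36.2, 34.6 and 33.1 CPM in adherent and 53.8, 86.1 and 50.8 CPM in ULA sgNTC libraries. In Ifngr1-KO libraries it was at 24.5, 21.6 and 28.3 CPM and 145, 139 and 137 CPM, the highest 3 PBS values of all. The rise was 0.87 ± 0.23 (adjusted p = 0.00306) in sgNTC and 2.50 ± 0.24 (adjusted p = 5.8e-08) in Ifngr1-KO cells. Mxi1 (ENSMUSG00000025025, GRCm38 chromosome 19, 53310506 to 53375810, plus strand), which encodes an antagonist of Myc, went from 107, 106 and 106 CPM to 179.8, 217 and 200.2 CPM in sgNTC libraries (0.91 ± 0.12) and from 113, 105 and 110.4 CPM to 282, 270.5 and 271 CPM in Ifngr1-KO libraries (1.33 ± 0.12). The cultures were apart in both lines. Bnip3l rose by 0.67 ± 0.08 and 0.93 ± 0.08, the collagen prolyl hydroxylase P4ha2 by 0.72 ± 0.11 and 0.90 ± 0.11, and the histone demethylase Kdm3a by 0.58 ± 0.12 and 0.68 ± 0.12. Ankrd37 was called in sgNTC cells at 0.57 ± 0.21, which like the calls on Bnip3 and Car9 was lost without any of 3 or 4 of the 6 libraries, with adjusted p up to 0.342. Adm, near absent in adherent cells at 0 to 6 counts per PBS library, had 27 to 59 counts in ULA PBS libraries.

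Hif1a transcript and Vegfa did not share this rise in sgNTC cells. Hif1a (ENSMUSG00000021109, GRCm38 chromosome 12, 73901375 to 73947530, plus strand) was at 861, 804 and 782 CPM in adherent and 593, 701 and 666 CPM in ULA sgNTC libraries, all of the latter lower, a difference of -0.32 ± 0.06 (adjusted p = 1.79e-05). In Ifngr1-KO libraries it was at 931, 938 and 937 CPM and 893, 902 and 887 CPM and was not called (-0.07 ± 0.06, 95% interval -0.19 to 0.06). Vegfa was not called in sgNTC cells (-0.22 ± 0.13, 95% interval -0.49 to 0.05) and rose by 0.38 ± 0.13 in Ifngr1-KO cells (adjusted p = 0.0168). With PBS its level was 777, 799 and 761 CPM in adherent and 593, 813 and 605 CPM in ULA sgNTC libraries. It was 761, 681 and 725 CPM and 1006, 929 and 884 CPM in the Ifngr1-KO libraries.

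**Figure D3:**
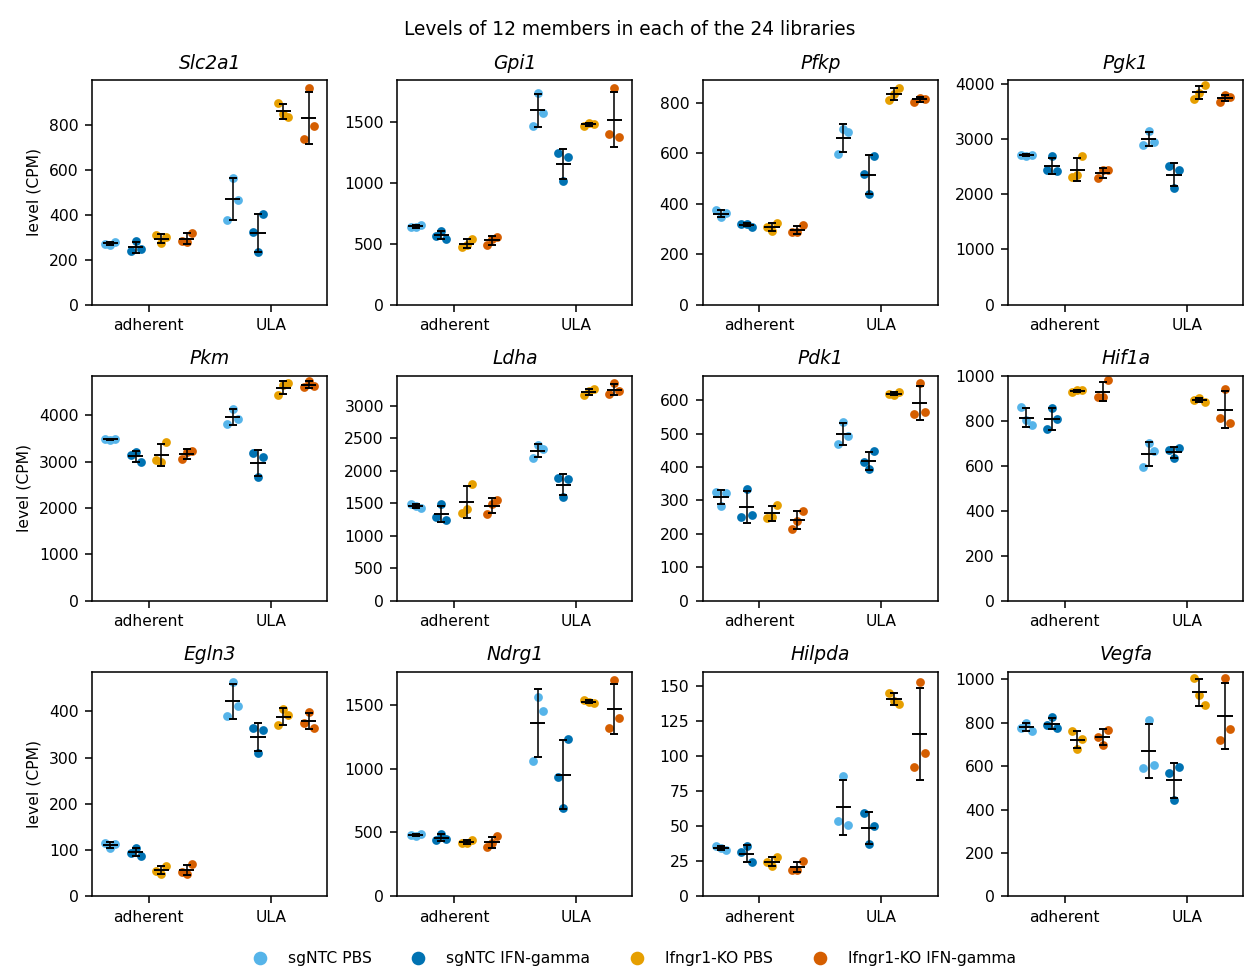
Levels in CPM (y axis, from 0) of 12 members in each of the 24 libraries, by culture and group, with group means and SD over 3 libraries. Egln3 sits at 48.1 to 116 CPM in the adherent libraries and at 310 to 464 CPM in the ULA libraries.

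The same comparison in IFN-gamma libraries, which shares no library with the PBS comparison, gave a like picture in Ifngr1-KO cells and fewer calls in sgNTC cells. In Ifngr1-KO cells 27 members rose and 1, Eno2, fell (29.3% and 30.9% of all genes, 60.2% in all), and all 27 rises were among the 29 with PBS. Hk2 and Vegfa, called higher with PBS in this line, were not called with IFN-gamma. The call on Eno2 was lost under another scaling and without any of 4 of the 6 libraries. In sgNTC cells 18 rose and 6 fell (32.6% and 32.0%, 64.6% in all). These 18 were all among the 24 with PBS, and the other 6 of those, Pgk1, Pkm, Slc2a1, Pfkfb3, Bnip3 and Car9, were not called with IFN-gamma. The overlap of calls between treatments was not counted over all tested genes in either line. There were 3 members that fell under both treatments in sgNTC cells: Eno2, Pfkfb4 and Hif1a. Hk2, Eno1 and Vegfa fell with IFN-gamma only as called, at -0.28 ± 0.11, -0.16 ± 0.06 and -0.57 ± 0.13. Without adherent or ULA IFN-gamma replicate 2, 3 members rather than 6 were called lower, and DESeq2 called 3. The calls on Hk2, Eno1 and Pfkfb4 were lost in 3, 2 and 5 of these 6 fits, with adjusted p up to 0.290. The steep rises were present again with IFN-gamma. Egln3 was at 94.3, 105 and 87.9 CPM in adherent and 364, 310.2 and 359.8 CPM in ULA sgNTC libraries (1.85 ± 0.12), and at 52.2, 48.1 and 69.2 CPM and 376, 398 and 365 CPM in Ifngr1-KO libraries (2.75 ± 0.13). Gpi1 rose by 1.02 ± 0.09 and 1.52 ± 0.09, Egln1 by 1.22 ± 0.15 and 1.98 ± 0.15, and Ndrg1 by 1.05 ± 0.16 and 1.79 ± 0.17, in sgNTC and Ifngr1-KO cells. Hilpda was called at 0.68 ± 0.24 in sgNTC cells, a call lost without adherent replicate 3 or ULA replicate 1 with adjusted p up to 0.094, and rose by 2.48 ± 0.24 in Ifngr1-KO cells. Its Ifngr1-KO libraries with IFN-gamma held 18.6, 18.8 and 25 CPM in adherent and 91.9, 153 and 102 CPM in ULA culture, far apart. Aldoa and Tpi1 rose by 0.13 ± 0.06 and 0.19 ± 0.08 in sgNTC cells, and both calls were lost without any of 4 of the 6 libraries, with adjusted p up to 0.165.

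For many members the ULA difference was higher in the Ifngr1-KO line. In the test of the difference itself, with PBS, the log2 difference between ULA and adherent cells was higher in Ifngr1-KO than in sgNTC cells for 20 members and lower for 1 (16.6% and 11.2% of all genes, 27.8% in all), with a median of 0.51 against 0.01 over all genes. The 20 were 11 enzymes, 3 carriers or regulators and 6 HIF genes. They include Eno2 and Hif1a, which fell in sgNTC cells and were not called in Ifngr1-KO cells. The 5 largest called differences were Hilpda at 1.63 ± 0.33 (adjusted p = 0.00115), Pfkfb3 at 1.26 ± 0.18 (adjusted p = 6.75e-06), Aldoc at 0.92 ± 0.15, Ankrd37 at 0.91 ± 0.31 and Egln3 at 0.86 ± 0.17. Slc2a1 differed by 0.77 ± 0.23, Pgam1 by 0.59 ± 0.12, Pdk1 by 0.56 ± 0.14 and Pgk1 by 0.51 ± 0.08. The exception was Pfkm, whose rise was smaller in Ifngr1-KO cells (-0.40 ± 0.08, adjusted p = 0.000453). For Gpi1 (0.26 ± 0.12, adjusted p = 0.135) and Ndrg1 (0.34 ± 0.23, adjusted p = 0.306) no difference was called. Leaving out 1 library at a time gave 17 to 23 members with a higher difference in Ifngr1-KO cells. The call was lost in some of these fits for Egln1 (9 of 12), Ankrd37 (7 of 12), Hif1a (2 of 12) and Vegfa (1 of 12).

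Between the lines, most called members were lower in Ifngr1-KO cells on adherent plates and all were higher in ULA plates. On adherent plates with PBS, 12 members were lower and 3 higher in Ifngr1-KO than in sgNTC cells (23.9% and 20.1% of all genes, 43.9% in all). The total of 15 of 34 is close to the share of all genes called. The hydroxylases were among the lower ones, Egln3 at -0.98 ± 0.12 (adjusted p = 2.14e-06) and Egln1 at -0.69 ± 0.15 (adjusted p = 0.000977), and the adherent Egln3 values of the lines given above did not overlap. Ankrd37, an ankyrin-repeat gene of little known function, was at 4.96, 6.7 and 5.52 CPM in sgNTC and 1.93, 2.13 and 3.39 CPM in Ifngr1-KO libraries (-1.20 ± 0.23, adjusted p = 6.47e-05). The brain-type aldolase gene Aldoc was at 60.9, 60.9 and 62.8 CPM and 37.5, 41.5 and 53.2 CPM (-0.48 ± 0.11, adjusted p = 0.00089). For both genes the lines did not overlap. Gpi1 was lower at -0.36 ± 0.09, Eno2 at -0.39 ± 0.12 and Pfkfb3 at -0.79 ± 0.13. The small differences of Pkm (-0.14 ± 0.06), Pgk1 (-0.15 ± 0.06) and Pgam1 (-0.22 ± 0.09) lost the call without any of 5 of the 6 libraries, with adjusted p up to 0.288. The 3 higher were Pfkm, Pfkfb4 (0.41 ± 0.16, a call lost without any of 5 of the 6 libraries) and Hif1a (0.20 ± 0.06). Pfkm (ENSMUSG00000033065, GRCm38 chromosome 15, 98092589 to 98132451, plus strand) was at 50.6, 48.3 and 51 CPM in sgNTC and 85.7, 83.4 and 89 CPM in Ifngr1-KO libraries, with no overlap (0.78 ± 0.06, adjusted p = 9.47e-13). The ratio of Pfkp to Pfkm per kilobase was accordingly 1.80 in adherent sgNTC and 0.892 in adherent Ifngr1-KO cells, and 1.75 and 1.70 in ULA cells.

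In ULA plates with PBS, 20 members were higher in Ifngr1-KO than in sgNTC cells and none lower (24.5% and 25.6% of all genes, 50.1% in all). Of the 20, 12 were enzymes, 4 were carriers or regulators and 4 were HIF genes. Slc2a1 was higher by 0.88 ± 0.16 (adjusted p = 0.000217), Hilpda by 1.14 ± 0.22 (adjusted p = 0.000383), Ldha by 0.48 ± 0.09 and Hif1a by 0.45 ± 0.06. Hk2, which traps glucose in the cell by phosphorylation, was at 308, 395 and 285 CPM in sgNTC and 502, 490.2 and 495 CPM in Ifngr1-KO ULA libraries (0.59 ± 0.11, adjusted p = 0.000133). Tpi1 was at 1259, 1355 and 1328 CPM and 1786, 1808 and 1830.3 CPM (0.46 ± 0.08, adjusted p = 3.92e-05). Both genes were higher in all 3 Ifngr1-KO libraries. Gapdh was called at 0.50 ± 0.18 (adjusted p = 0.0277), which was lost without any of 3 of the 6 libraries with adjusted p up to 0.108, and Pfkfb4 was higher by 0.95 ± 0.16. Vegfa and Mxi1 were the other HIF genes, at 0.49 ± 0.13 and 0.46 ± 0.12. Several HIF targets with steep rises ended at levels for which no difference between lines was called: Egln3 at -0.12 ± 0.12 (95% interval -0.36 to 0.12), Egln1 at -0.11 ± 0.14, Ndrg1 at 0.17 ± 0.16 and Bnip3l at 0.10 ± 0.08. Gpi1 was not called either (-0.11 ± 0.09).

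IFN-gamma lowered a set of glycolytic enzymes in ULA sgNTC cells. There 9 of 34 members fell and none rose (0.739% of all tested genes were called lower, 1.31% higher, 2.05% in all), and all 9 were enzymes: Pkm, Aldoa, Pgk1, Eno1, Pfkp, Gpi1, Pgam1, Tpi1 and Ldha. The largest fall on the log2 scale was that of Gpi1 and the smallest that of Eno1, at -0.46 and -0.33. The log2 difference was negative for 32 of 34 members (49.2% of all genes), with a median of -0.33 against 0.00 over all genes. Pkm was at 3178, 2659 and 3105 CPM with IFN-gamma against 3809, 4147 and 3917 CPM with PBS (-0.41 ± 0.06, adjusted p = 7.23e-06). Pgk1 (ENSMUSG00000062070, GRCm38 chromosome X, 106187100 to 106203699, plus strand) was at 2512, 2113 and 2439 CPM against 2894, 3135 and 2951 CPM (-0.35 ± 0.06, adjusted p = 0.00021). In both genes the 3 IFN-gamma values lay below all 3 PBS values. Aldoa (ENSMUSG00000030695, GRCm38 chromosome 7, 126795234 to 126800751, minus strand) was at 1387, 1237 and 1358 CPM against 1596, 1729 and 1728 CPM (-0.34 ± 0.06, adjusted p = 0.00013). Gpi1 was at 1244, 1018 and 1211 CPM against 1469.7, 1745 and 1579 CPM, again without overlap (-0.46 ± 0.09, adjusted p = 0.00385). The differences were -0.33 ± 0.06 for Eno1, -0.35 ± 0.07 for Pfkp and -0.36 ± 0.08 for Tpi1. Pgam1 was at 827, 691 and 857 CPM with IFN-gamma (-0.38 ± 0.09, adjusted p = 0.0166) and Ldha at 1878, 1594 and 1864 CPM (-0.37 ± 0.09, adjusted p = 0.0182). For these genes too, no IFN-gamma library reached the PBS values given above. The enzyme share of counts was 1.54% ± 0.121 (SD, n = 3) with IFN-gamma, below all 3 PBS libraries.

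No HIF gene or carrier was called. Their medians were -0.33 and -0.20 on the log2 scale. Slc2a1 was at 321, 233 and 403 CPM with IFN-gamma in ULA sgNTC libraries, overlapping the PBS libraries (-0.55 ± 0.16, adjusted p = 0.105). Ndrg1 was at 937, 693 and 1228 CPM, also overlapping (-0.51 ± 0.16, adjusted p = 0.143). Egln1 (-0.40 ± 0.14), Hilpda (-0.38 ± 0.23) and Egln3 (-0.29 ± 0.12) were not called. Hif1a stood at 672, 633 and 679 CPM with a difference of 0.02 ± 0.06 (95% interval -0.10 to 0.14). DESeq2 called 12 members lower, adding Slc2a1, Ndrg1 and P4ha2, and edgeR without a filter on low counts called 21.

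**Figure D4:**
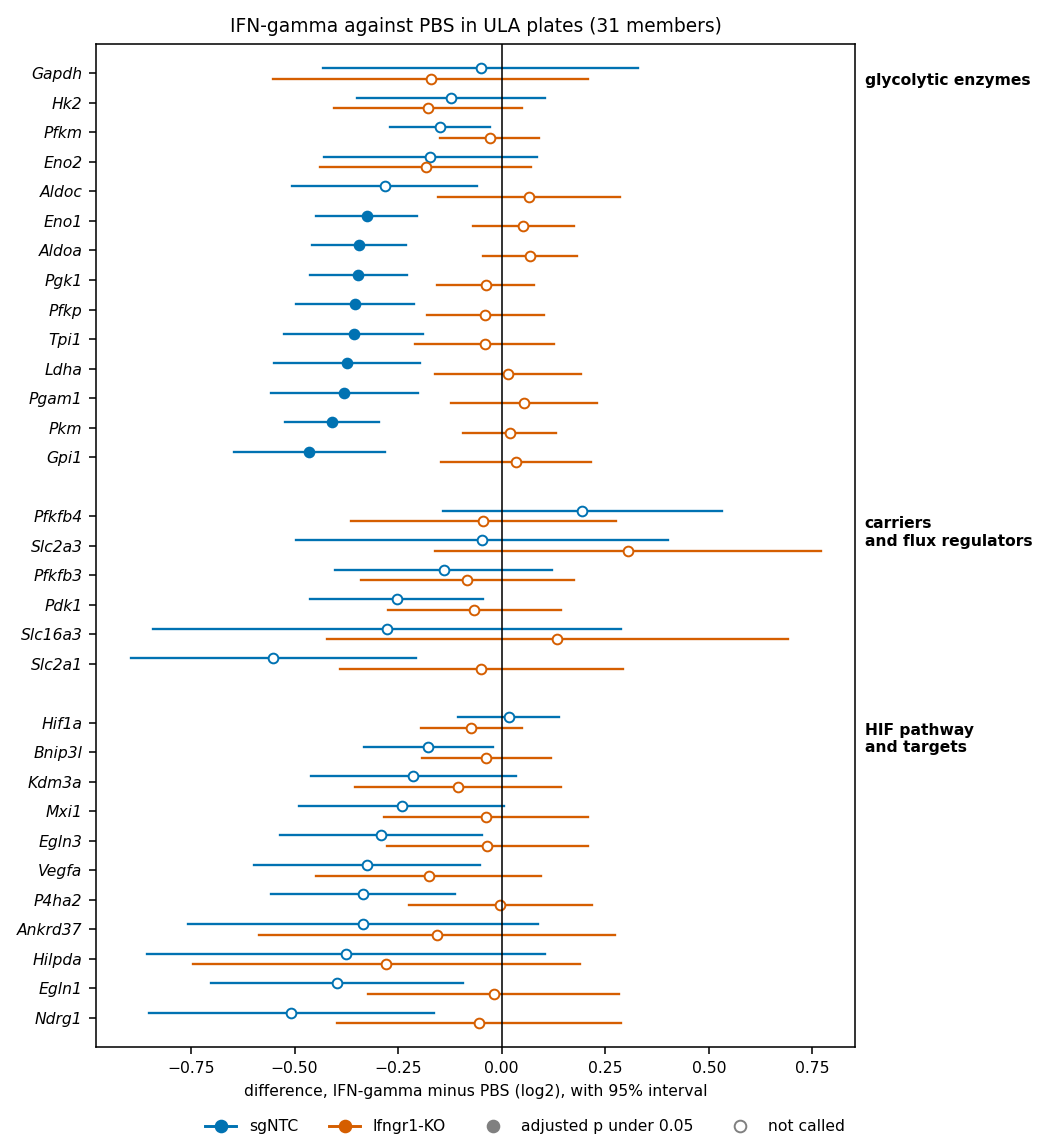
Log2 difference between IFN-gamma and PBS libraries in ULA culture (x axis) for 31 members, in sgNTC (blue) and Ifngr1-KO (orange) cells, with 95% intervals; filled points are called. In sgNTC cells 9 enzymes are called between -0.33 and -0.46, and no member is called in Ifngr1-KO cells. Bnip3, Adm and Car9 are left out for their low counts.

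In some groups most members moved together from library to library. Among 29 members with a mean of at least 5 CPM, ULA sgNTC IFN-gamma replicate 2 was the lowest of its 3 libraries for 28, with a median of -0.18 from the group mean on the log2 scale. Such ranks, here and below, were not taken over all tested genes, so they are not shown to be particular to the members. ULA sgNTC PBS replicate 2 was the highest of its group for 24 (median 0.10), ULA Ifngr1-KO IFN-gamma replicate 2 for 25 (0.16) and adherent sgNTC IFN-gamma replicate 2 for 25 (0.11). Libraries with other numbers stood apart as well. Adherent Ifngr1-KO IFN-gamma replicate 3 was the highest for 25 (0.09) and adherent Ifngr1-KO PBS replicate 3 for 20 (0.11). ULA sgNTC PBS replicate 1 was the lowest for 22 (-0.12). In the ULA Ifngr1-KO PBS and adherent sgNTC PBS libraries the medians over the 29 members were -0.01 to 0.01. Within single lists there was an order in these groups too. ULA Ifngr1-KO PBS replicate 1 was the lowest for 12 of 14 enzymes (median -0.04). Adherent sgNTC PBS replicate 1 was the highest for 8 of 11 HIF genes (median 0.06). Without ULA sgNTC IFN-gamma replicate 2 or PBS replicate 2, 6 members instead of 9 were called lower with IFN-gamma, and over all 6 libraries left out in turn the count ran from 6 to 12. Pkm, Aldoa, Pgk1, Eno1, Pfkp and Gpi1 kept the call in each of these fits, with adjusted p up to 0.0276. Tpi1, Pgam1 and Ldha lost it in 2 or 3 of them, with adjusted p up to 0.102. When only the 2 compared groups were fitted, Pfkp and Pgam1 lost the call.

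**Figure D5:**
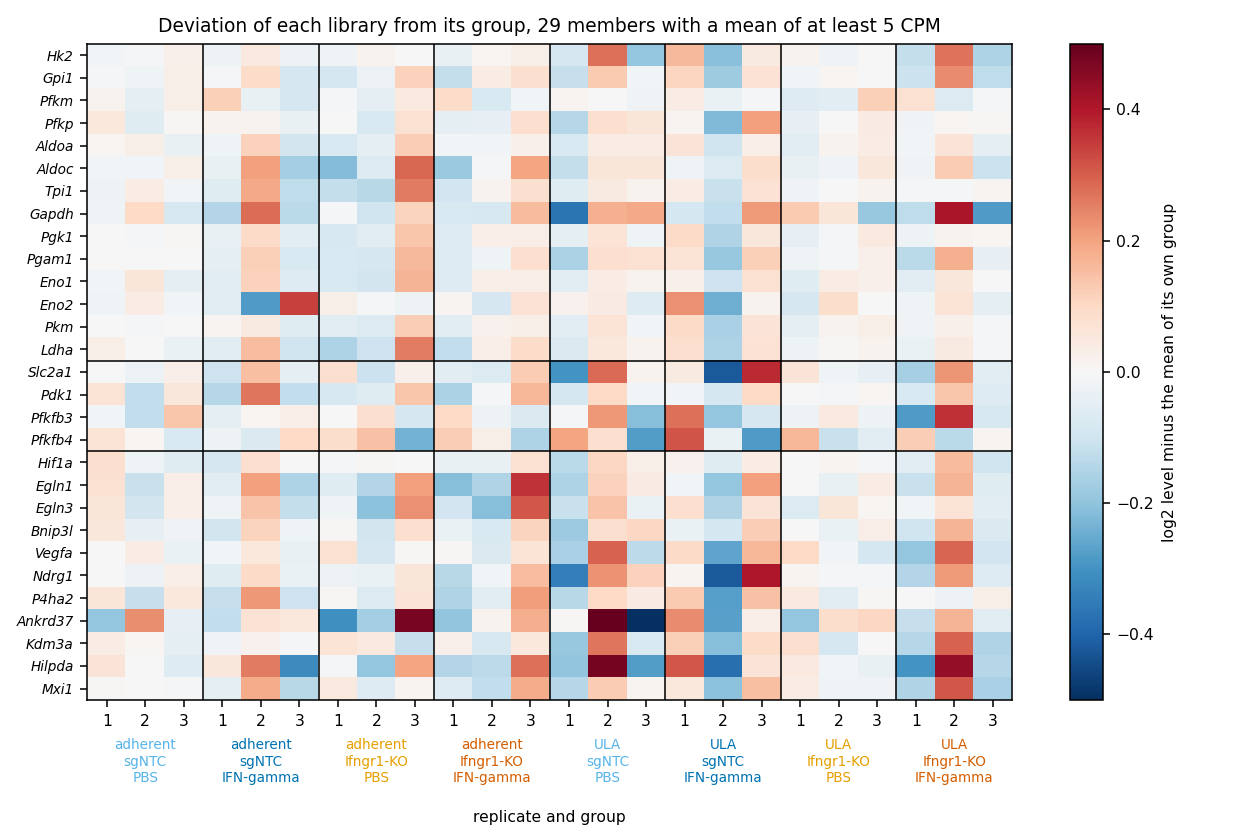
Log2 level of 29 members in each library minus the mean of its own group of 3 (colour, from -0.5 to 0.5), with columns for the 24 libraries and horizontal lines between enzymes, carriers and regulators, and HIF genes. The columns of ULA sgNTC IFN-gamma replicate 2 (mostly blue, median -0.18) and ULA Ifngr1-KO IFN-gamma replicate 2 (mostly red, median 0.16) run through most members.

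On adherent plates IFN-gamma changed 1 member in sgNTC cells (0.0205% of all tested genes called lower, 0.294% higher, 0.315% in all). Pfkm fell from 50.6, 48.3 and 51 CPM to 43.7, 39.3 and 38 CPM (-0.31 ± 0.06, adjusted p = 0.01), a call lost without any of 4 of the 6 libraries with adjusted p up to 0.122. Pkm was not called at -0.16 ± 0.06 and Gpi1 at -0.18 ± 0.09. The fall in ULA was not shown to differ from that on adherent plates: the test of the difference called no member (0.0479% of all genes), with 6 members at an unadjusted p under 0.05 (5.34% of all genes), all more negative in ULA. DESeq2 called none, and edgeR without a filter called 7. For Pkm the difference was -0.25 ± 0.08 (adjusted p = 0.758).

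In the Ifngr1-KO line IFN-gamma changed no member in edgeR's test, on adherent plates (0.00684% of all genes called) or in ULA plates (0% called). At an unadjusted p under 0.05 there was 1 member on adherent plates (8.31% of all genes) and none in ULA plates (7.54%), and DESeq2 called none in either. Pkm stood at 4605, 4745 and 4636 CPM with IFN-gamma and 4443, 4660.1 and 4694 CPM with PBS in ULA Ifngr1-KO libraries, which overlapped (0.02 ± 0.06, 95% interval -0.09 to 0.13). Gpi1 stood at 1401, 1780.4 and 1383 CPM with IFN-gamma (0.03 ± 0.09, 95% interval -0.15 to 0.22). Pgk1 differed by -0.04 ± 0.06 and Aldoa by 0.07 ± 0.06.

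The response to IFN-gamma in ULA plates differed between the lines for 5 enzymes in the test of that difference (0.540% of all genes called higher, 0.793% lower, 1.33% in all). The response of Ifngr1-KO minus that of sgNTC cells was 0.50 ± 0.12 for Gpi1 (adjusted p = 0.0462), 0.43 ± 0.08 for Pkm (adjusted p = 0.00233), 0.41 ± 0.08 for Aldoa (adjusted p = 0.00343), 0.38 ± 0.09 for Eno1 (adjusted p = 0.0175) and 0.31 ± 0.08 for Pgk1 (adjusted p = 0.0488). Pgam1 and Ldha were not called at 0.43 ± 0.12 (adjusted p = 0.0716) and 0.39 ± 0.12 (adjusted p = 0.109). The count was 2 without ULA Ifngr1-KO PBS replicate 1 or ULA sgNTC IFN-gamma replicate 2, and 3 without ULA Ifngr1-KO PBS replicate 2 or ULA sgNTC PBS replicate 2 or 3. Gpi1 lost the call in 7 and Pgk1 in 8 of the 12 fits, with adjusted p up to 0.095 and 0.144, and both lost it under relative log expression scaling and when only the compared groups were fitted. Eno1 lost it in 2 of the 12, and Pkm and Aldoa kept it in all 12. The ULA sgNTC PBS libraries enter this test and the comparisons of IFN-gamma, of culture and of the lines in ULA plates alike, so these results share their error.

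Further genes of the pathway were taken from 3 lists that do not overlap the members. Of 30 other glycolysis genes 22 were tested, and in ULA culture with PBS 12 rose and 6 fell in sgNTC cells (32.5% and 32.1% of all genes) and 11 rose and 5 fell in Ifngr1-KO cells (29.6% and 31.1%). Ldhb, the lactate dehydrogenase subunit that favours pyruvate, rose from 52.9 to 330.0 CPM in sgNTC cells (2.64 ± 0.08) and from 32.4 to 88.4 CPM in Ifngr1-KO cells (1.45 ± 0.08). Its rise was smaller in the Ifngr1-KO line (-1.19 ± 0.11, adjusted p = 1.01e-09), unlike that of Ldha (0.41 ± 0.12, adjusted p = 0.0124). Pdk2, like Pdk1 a pyruvate dehydrogenase kinase, went from 4.73 to 30.3 CPM in sgNTC cells (2.67 ± 0.12) and from 7.08 to 21.6 CPM in Ifngr1-KO cells (1.61 ± 0.12), again less in the latter (-1.06 ± 0.17, adjusted p = 1e-05). Pck2, the mitochondrial phosphoenolpyruvate carboxykinase, fell from 225 to 56 CPM in sgNTC cells (-2.01 ± 0.08) and from 207 to 50.7 CPM in Ifngr1-KO cells (-2.03 ± 0.08). Between the lines, Ldhb was lower in Ifngr1-KO cells, at -0.71 ± 0.08 on adherent and -1.90 ± 0.08 in ULA plates. With IFN-gamma in ULA sgNTC cells 2 of the 22 fell and none rose (0.739% and 1.31% of all genes). The 2 were the liver-type phosphofructokinase Pfkl (-0.45 ± 0.08, adjusted p = 0.00077) and hexokinase Hk1 (-0.48 ± 0.09, adjusted p = 0.00608).

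The HIF machinery comprises subunits of HIF and the proteins that modify, destroy or assist it. Of 14 such genes 12 were tested. Epas1, which encodes HIF-2alpha, rose in ULA culture with PBS from 31.7 to 89.6 CPM in sgNTC cells (1.50 ± 0.07, adjusted p = 2.06e-19) and from 18.1 to 74.6 CPM in Ifngr1-KO cells (2.04 ± 0.07, adjusted p = 1.46e-22), in contrast to the Hif1a values above. In total 5 of the 12 rose and 2 fell in sgNTC cells, and 5 rose and 3 fell in Ifngr1-KO cells, both near the shares of all genes called (64.6% and 60.7%). Of 35 other HIF targets 33 were tested: 16 rose and 5 fell in sgNTC cells (32.5% and 32.1% of all genes), and 26 rose and 1 fell in Ifngr1-KO cells (29.6% and 31.1%). Over the 33 the log2 difference ran from -2.92 to 1.58 in sgNTC cells and from -3.63 to 2.39 in Ifngr1-KO cells. Car12, a carbonic anhydrase, rose by 1.17 ± 0.07 and 2.39 ± 0.07, and Insig2, a regulator of sterol synthesis, by 1.29 ± 0.05 and 1.53 ± 0.05. The collagen lysyl hydroxylase Plod2 went from 230 to 565 CPM in sgNTC cells (1.30 ± 0.11) and from 179 to 745 CPM in Ifngr1-KO cells (2.06 ± 0.11). The ULA difference was higher in Ifngr1-KO cells for 16 of the 33 (16.6% of all genes) and lower for none (11.2%), with the mitochondrial adenylate kinase Ak4 at 1.01 ± 0.15 (adjusted p = 1.28e-05). On adherent plates 13 of the 33 were lower in Ifngr1-KO than in sgNTC cells and 2 higher, against 23.9% and 20.1% of all genes, and 43.9% of all genes in either direction, a total close to that of the list. The lysyl oxidase gene Lox was at 38 CPM in sgNTC and 9.12 CPM in Ifngr1-KO cells there (-2.06 ± 0.15, adjusted p = 1.08e-10), and the nuclear receptor gene Rora at 14.1 and 3.39 CPM (-2.06 ± 0.15, adjusted p = 9.2e-14). In ULA plates 16 of the 33 were higher and 5 lower in Ifngr1-KO cells (24.5% and 25.6% of all genes), Rora still among the lower ones (-1.60 ± 0.14). With IFN-gamma in ULA sgNTC cells 2 of the 33 fell (0.739% of all genes), Kdm4b (-0.38 ± 0.08) and P4ha1 (-0.34 ± 0.07). No gene of the HIF machinery was called there (2.05% of all genes in either direction).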

How the data were processed

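Poly-A RNA was sequenced in 24 libraries, 8 groups of 3. Per the submitters' processing notes the tools were Trimmomatic, HISAT2, SAMtools, featureCounts of Subread 2.1.1 and DESeq2, with GRCm38 (mm10). The deposited values are raw counts per gene. Per the file headers featureCounts ran in paired-end mode without strand, without multi-mapping reads, and with each mate adding 1, so read pairs are fewer than counts. Of 31062 features 30934 had a symbol. Aldoa has a second identifier with 3 to 83 counts, which was not used.

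Genes passed filterByExpr (minimum count 10). edgeR 4.0.16 in R 4.3.3 fitted 1 mean per group to all libraries after TMM scaling (factors 0.958 to 1.054), with a robust quasi-likelihood fit and 16 residual degrees of freedom. Tests were two-sided, with Benjamini-Hochberg adjustment over 14622 genes in each of 13 comparisons. CPM used TMM-scaled totals. P-values measure the spread between cultures of 1 line per genotype. Scripts were tested on simulated data. Replicate numbers did not pair the libraries.

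The members and the lists were chosen with earlier results of these data known. All members could be named, and full values were given for up to 4 called members per list and comparison with the largest absolute log2 difference among those with at least 5 CPM in a compared group. A few others (such as Pkm, Pgk1, Aldoa and Hif1a) were given for their abundance or role after their values were seen. From the other lists up to 3 called genes with the smallest adjusted p were named. The alternatives were another scaling (size factors by relative log expression), no filter, a replicate block, only the compared groups, DESeq2 1.42.0 and leaving out each library.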

Additional observations from a re-analysis of the deposited data

Results flagged for a closer look

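A pair of results stands out because the same contrast differed between the lines in a test of the difference. The effect of ULA culture with PBS differed for 21 of 34 members, and for 27.8% of all tested genes. In Ifngr1-KO minus sgNTC cells the log2 difference was 1.63 for Hilpda, 1.26 for Pfkfb3, 0.92 for Aldoc, 0.91 for Ankrd37 and 0.86 for Egln3. It was 0.77 for Slc2a1, 0.63 for Eno2, 0.60 for Vegfa, 0.59 for Pgam1, 0.57 for Pfkp and 0.56 for Pdk1.

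The response to IFN-gamma in ULA plates differed between the lines for 5 members, and for 1.33% of all tested genes. On the log2 scale it differed by 0.50 for Gpi1, 0.43 for Pkm, 0.41 for Aldoa, 0.38 for Eno1 and 0.31 for Pgk1. The calls on Gpi1 and Pgk1 were lost in 7 and 8 of 12 fits that left out 1 library, and the call on Eno1 in 2.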

How the results depend on the processing

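Of the 86 called member values picked by size for naming, none changed direction under any alternative that was run. For other values the direction was not checked in every fit. Counts of members called lower with IFN-gamma moved most without a filter on low counts, when 23093 genes were tested: to 21 in ULA sgNTC cells, 2 in adherent sgNTC cells, 1 in ULA Ifngr1-KO cells and 7 for the difference between cultures. Without a filter 15 members differed between the lines in the IFN-gamma response in ULA plates. For ULA against adherent culture without a filter, 5 members were lower in sgNTC cells with PBS and none in Ifngr1-KO cells with IFN-gamma. For that last count, 1 in the main analysis, relative log expression scaling and DESeq2 also gave 0, and leaving out single libraries gave 0 to 2. Relative log expression scaling gave 3 members for the difference between the lines in the IFN-gamma response. In ULA against adherent culture with IFN-gamma, DESeq2 gave 3 members lower in sgNTC cells. Leaving out single libraries gave 0 to 1 members lower with IFN-gamma than with PBS in adherent sgNTC cells. In ULA against adherent sgNTC cells it gave 3 to 5 lower with PBS and 3 to 6 lower with IFN-gamma. Between the lines in ULA plates with PBS it gave 0 to 1 lower in Ifngr1-KO cells. For the difference between the lines in the IFN-gamma response it gave 2 to 7. The cause of these shifts was not tested.

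Same-numbered libraries of different groups did not deviate together (mean correlation 0.00342, none of 84 above 0.1), so the numbers do not pair them. A replicate block changed 1 count by more than 1.5 times, to 2 members lower in ULA than in adherent Ifngr1-KO cells with IFN-gamma. Of the 179 called values of members over all comparisons, the call was lost for 4 with DESeq2, 6 with the other scaling, 13 when only the compared groups were fitted, 2 without a filter, 1 with the block and 32 when some library was left out. The share of members with a promoter match was 90.3% for the shorter window too. Low counts limit Bnip3, Adm and Car9, and groups of 3 limit every test.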
